A study of Mus musculus with 54 samples.

Results

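Microglia that had been co-cultured for 30 min as acceptors were compared with untreated microglia. The comparison rests on 10 of the 54 libraries of the series, chosen by their labels: 4 libraries labelled acceptors at 30 min and 6 labelled untreated control. Replicate numbers 2 and 4 each occurred in 2 untreated libraries, whose counts were summed, so that 4 acceptor units stood against 4 untreated units, numbered by experiment from 1 to 4. All cells were primary microglia of C57BL/6 mice with no engineered allele, isolated from neonatal animals with the brains of 2 mice pooled per flask and shaken off an astrocyte layer, at passage 3 in experiment 1, passage 1 in experiment 2 and passage 2 in experiments 3 and 4.

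Acceptors carried a violet cell dye given for 15 min and were mixed with donor microglia that had taken up fluorescent alpha-synuclein (1 µM for 14 h). After 30 min the co-culture was separated by flow cytometry, and the acceptor fraction was sequenced. For the untreated cells the labels name no dye, no partner cells and no sort. Contact with donors, the dye and the sort therefore cannot be told apart in this comparison. Nothing in the labels says that same-numbered units came from the same animals or that the 4 numbers are separate litters. The p-values therefore measure the spread between units. That spread was estimated over the 52 units of all 14 groups, not over the acceptor and untreated units alone.

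Microglia are the resident macrophages of the brain and take up alpha-synuclein, the protein that aggregates in Parkinson's disease. Immediate early genes, such as those of the FOS, KLF and NR4A families, are transcribed within minutes of a stimulus because their activators are already in the cell. Interferon-stimulated genes are kept on by type I interferon, which acts through a complex of transcription factors at a short promoter element. Their products sense and restrict viral nucleic acid.

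Counts were read near the poly(A) tail of each transcript, and levels are given in CPM, the counts of a gene scaled to a common library total. The 10 libraries held 9407503 to 15362496 counts and 13450 to 14653 detected genes. Rn45s, a ribosomal RNA precursor, made up 1.42% to 7.69% of a library in experiments 1 to 3 but 19.9% to 22.3% in experiment 4, whose libraries carry a separate series of facility numbers. Microglia and macrophage markers summed to 12121 to 27920 CPM in untreated units and to 11912 to 24435 CPM in acceptors. All 12 of these markers were in the table, and none was called with either fit.

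A gene was called when its Benjamini-Hochberg adjusted p-value in edgeR's quasi-likelihood test was under 0.05. Without a term for the experiment, 15 of 13169 tested genes were called (0.114%), 11 of them higher (0.0835%) and 4 lower (0.0304%) in acceptors. The replicate block adds a term for the experiment to the same fit of all 14 groups. With the block, 474 genes were called (3.60%), of which 205 were higher (1.56%) and the others lower (2.04%). All 15 were among the 474. Of the 205, 197 were higher in 4 of 4 experiments, and of the lower genes 87.7% were lower in 4 of 4. Over all 13169 tested genes, 1436 were higher and 1684 lower in 4 of 4. The called genes were picked by these same differences, so their shared direction is no separate support. The fit's median log2 difference over all tested genes was -0.03 without the block and -0.04 with it.

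The size of the differences was not even over the experiments. Experiment 3 gave the largest same-numbered difference for 104 of the 205 higher genes and for 97 of the lower genes. The blocked fit without experiment 1, 2, 3 or 4 called 77, 271, 24 and 597 genes in turn. A fit of the 8 units alone called 0 genes without the block and 106 with it.

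The genes called in both fits include a phosphatase, a receptor and regulators of p53. Dusp1 encodes a phosphatase that switches off MAP kinases and lies at chr17:26505590-26562128 (mm10), where Ergic1 overlaps it on the opposite strand. In untreated units it stood at 134, 221, 102 and 56.8 CPM in experiments 1 to 4, and in acceptors at 294, 281, 338 and 729 CPM. Every acceptor unit was above every untreated unit, and the acceptor unit of experiment 4 stood apart above the rest. The log2 difference was 1.67 ± 0.34 (SE, adjusted p = 0.0212), and 1.54 ± 0.25 with the replicate block (adjusted p = 0.000288).

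Mybpc3, the cardiac myosin-binding protein C gene (chr2:91118144-91136516), was low in untreated units, at 2.62, 0.785, 1.20 and 1.47 CPM. Acceptors held 9.86, 6.85, 7.16 and 16.6 CPM. The groups did not overlap, and the lowest acceptor unit exceeded the highest untreated one. The log2 difference was 2.76 ± 0.47 (adjusted p = 0.00809) and had the smallest adjusted p in both fits (8.93e-06 with the replicate block).

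Cxcr4, the receptor for the chemokine CXCL12 (chr1:128588199-128592293), stood at 67.5, 93.5, 47.8 and 73.5 CPM in untreated units and at 132, 116, 199 and 138 CPM in acceptors. All 4 acceptor units were above all 4 untreated units, with the smallest gap in experiment 2. The log2 difference was 1.05 ± 0.22 (adjusted p = 0.0335). Of the 25 chemokine and chemoattractant receptor genes tested, Cxcr4 was the only one called higher in either fit. P2ry12 and Cmklr1 were called lower with the block.

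Mdm2 encodes the ubiquitin ligase that degrades p53 and is itself a p53 target. Its level was 231.2, 273, 178 and 173 CPM in untreated units against 458, 497, 359 and 412 CPM in acceptors. It rose by similar steps in every experiment, with log2 differences of 0.99, 0.87, 1.01 and 1.25. Sfn, another p53 target, stood at 8.98, 4.97, 5.31 and 3.77 CPM in untreated units and 19.98, 13.7, 21.7 and 9.80 CPM in acceptors. The fitted differences were 1.01 ± 0.22 for Mdm2 (adjusted p = 0.0335) and 1.52 ± 0.29 for Sfn (adjusted p = 0.0175).

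Autophagy and glycosylation genes were among the smaller rises. Atg12, a ubiquitin-like protein of autophagosome formation, went from 64.0, 84.7, 55.4 and 71.8 CPM to 113, 114, 109 and 118 CPM. Its 4 acceptor values lay closer together than its untreated values. Atg2a, a lipid transfer protein of the growing autophagosome, went from 28.7, 28.9, 22.7 and 22.3 CPM to 49.2, 43.3, 38.2 and 41.6 CPM. The log2 differences were 0.72 ± 0.14 and 0.75 ± 0.14 (adjusted p = 0.0175 for both). B4galt1, a galactosyltransferase, rose by 0.71 ± 0.16 (adjusted p = 0.0443, not called with RLE size factors), and Galnt6, which starts O-linked glycans, by 0.87 ± 0.18 (adjusted p = 0.0212). Eif1, a factor of start codon selection, rose by 0.54 ± 0.12 (adjusted p = 0.0336).

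Klf4, a zinc finger transcription factor, was the one called gene whose groups overlapped. Untreated units held 5.05, 4.32, 2.66 and 9.76 CPM and acceptors 21.1, 16.1, 4.95 and 40.7 CPM. Acceptors were higher within each experiment, but the acceptor value of experiment 3 lay below untreated values of experiments 1 and 4. The log2 difference was 1.90 ± 0.42 (adjusted p = 0.0483, not called with RLE size factors).

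Of the genes called lower without the block, Snx2, a sorting nexin of endosomes, stood at 158, 235.1, 197 and 139 CPM in untreated units and at 89.9, 105, 97.4 and 107 CPM in acceptors. Its acceptor values lay close together, below every untreated value. Snx2 fell by 0.87 ± 0.17 (adjusted p = 0.0175), Epb41, a membrane skeleton protein, fell by 0.79 ± 0.16 (adjusted p = 0.0212), and Jpt1 fell by 0.49 ± 0.11 (adjusted p = 0.0483). In all 3 the lowest untreated unit stayed above the highest acceptor unit.

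**Figure D1:**
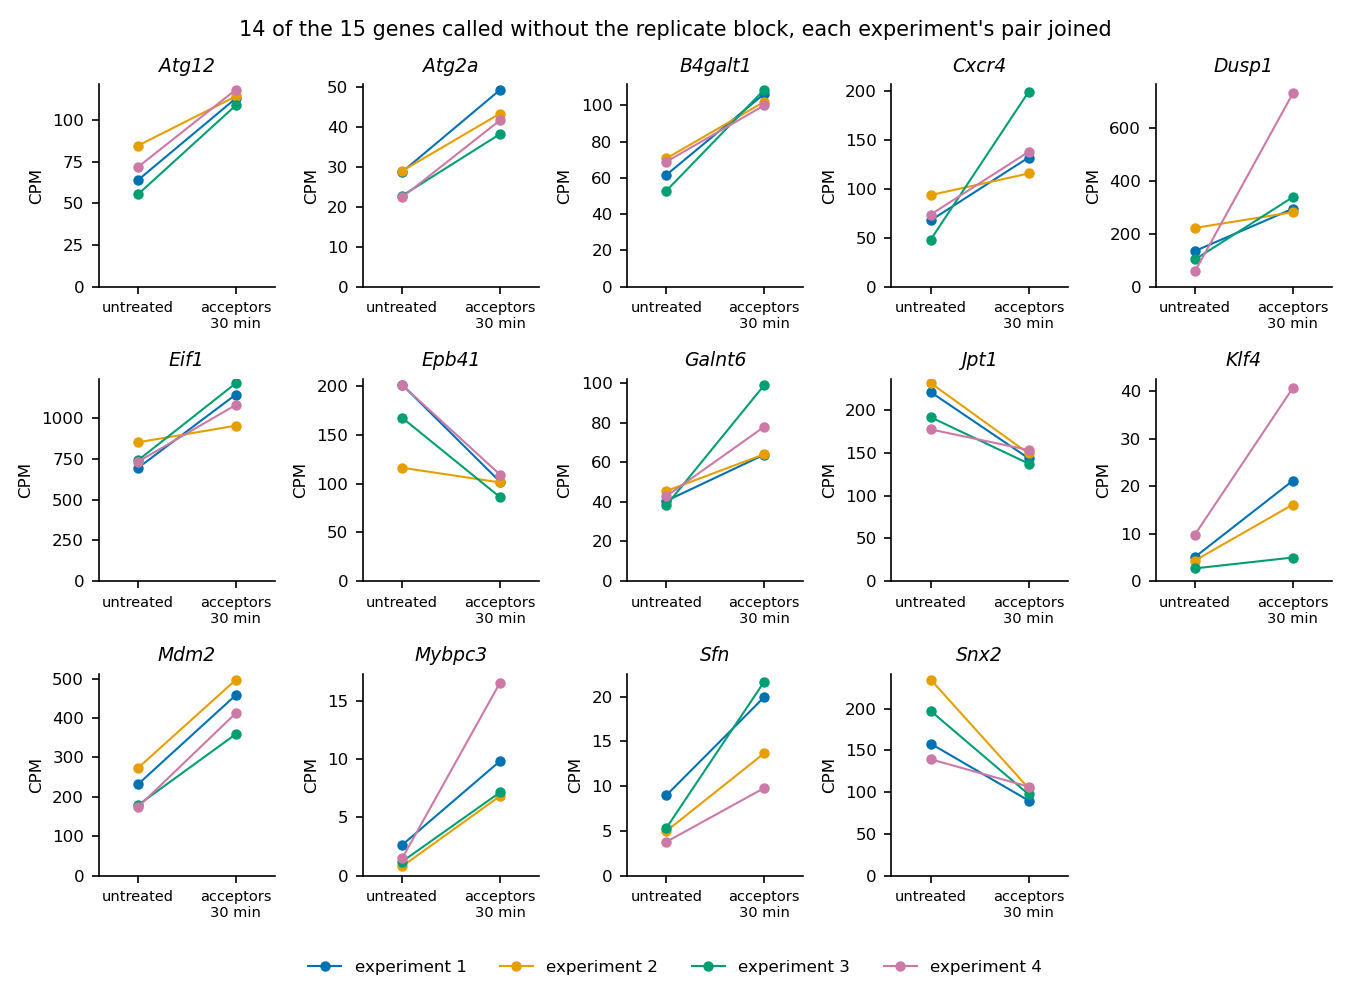
Level in CPM (y axis, linear from 0) of 14 of the 15 genes called without the replicate block, in untreated units and acceptors at 30 min (x axis), with a line joining the 2 units of each experiment. Lines rise for 11 genes and fall for 3 (Epb41, Jpt1 and Snx2), in every experiment, and the Dusp1 acceptor unit of experiment 4 reaches 729 CPM.

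Those 15 genes depended on which experiments entered. Without the block, 0 genes were called without experiment 1 or without experiment 3. With the replicate block, 12, 14, 8 and 15 of them were still called when experiment 1, 2, 3 or 4 was left out.

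Immediate early genes were higher in part. Of 36 tested, 2 were called higher without the block (Dusp1 and Klf4), 6 with it and 0 lower, and the median log2 difference was 0.38, against -0.03 over all genes. The 4 others called with the block were Ier3, Nr4a2, Ppp1r15a and Junb. Junb, an AP-1 subunit named here to complete the count, had means of 166 CPM in untreated units and 386 CPM in acceptors (adjusted p = 0.0311 with the replicate block).

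Ier3, a survival gene induced by stress and NF-kB, stood at 20.3, 22.8, 16.7 and 17.3 CPM in untreated units and 52.8, 38.8, 65.9 and 180 CPM in acceptors. Nr4a2, an orphan nuclear receptor, stood at 0.908, 0.698, 1.80 and 1.96 CPM and at 3.17, 1.20, 7.62 and 53.9 CPM. Both were highest in the acceptor unit of experiment 4, and only Nr4a2 overlapped between groups. With the replicate block the log2 differences were 1.61 ± 0.36 for Ier3 (adjusted p = 0.00807) and 2.88 ± 0.67 for Nr4a2 (adjusted p = 0.0113). Without the block the adjusted p-values were 0.470 and 0.304.

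Ppp1r15a, a phosphatase subunit that reverses the stress block on translation, held 25.4, 31.0, 21.9 and 16.3 CPM in untreated units and 36.5, 38.0, 44.8 and 56.4 CPM in acceptors. Its groups did not overlap, and its blocked log2 difference was 0.86 ± 0.19 (adjusted p = 0.00718). Other members did not pass: Fos went from a mean of 151 to 309 CPM with an adjusted p of 0.0693 with the replicate block, and Egr1 from 18.8 to 20.4 CPM with 0.892. The list's median same-numbered difference was 0.15, -0.11, 0.88 and 1.12 in experiments 1 to 4, so experiment 2 did not share the direction. Without experiment 2 the fitted median was 0.79, and without experiment 3 or 4 it was 0.25 and 0.23. Leaving out experiment 1, 2, 3 or 4 left 4, 10, 1 and 4 members called with the block.

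Among 38 genes of the NF-kB inflammatory list, 0 were called without the block and 4 were called higher with it: Cxcl2, Cxcl1, Ptgs2 and Lcn2. Cxcl2, a chemokine that attracts neutrophils, stood at 42.3, 61.5, 82.5 and 10.1 CPM in untreated units and 171, 172, 189 and 299 CPM in acceptors. Acceptor units 1 to 3 lay close together and above all untreated units, while experiment 4 combined the lowest untreated and the highest acceptor value. The blocked log2 difference was 1.80 ± 0.44 (adjusted p = 0.0183, and 0.304 without the block).

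Cxcl1, a related chemokine, was at 1.51, 1.35, 3.94 and 0.867 CPM in untreated units and at 7.83, 5.26, 8.61 and 13.6 CPM in acceptors. Ptgs2, the inducible cyclooxygenase, was at 3.33, 4.93, 3.17 and 3.20 CPM and at 15.0, 7.54, 17.0 and 76.9 CPM. Neither gene overlapped between groups. The blocked log2 differences were 2.16 ± 0.58 (adjusted p = 0.0280) and 2.27 ± 0.65 (adjusted p = 0.0389), and neither passed without the block (0.571 and 0.640).

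Lcn2, an iron-siderophore binding protein, was called with the block although only experiment 4 held it above 1.5 CPM: untreated units had 0.00, 0.0872, 0.5999 and 1.21 CPM and acceptors 0.203, 0.00, 0.152 and 14.3 CPM. Its fitted difference turned negative, to -0.65 with the block, when experiment 4 was left out. Tnf, with means of 44.8 and 29.0 CPM, and Il1b, with 29.1 and 110 CPM, did not pass (blocked adjusted p = 0.270 and 0.108). The list's median was 0.39 (0.17 without experiment 4), and 0.35, -0.10, 0.28 and 0.92 by experiment. Without experiment 1, 2, 3 or 4, 0, 1, 0 and 6 members were called higher with the block. Without experiment 4, 2 members were also called lower.

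Most interferon-stimulated genes had lower levels in acceptors, and this list had the most negative median of the 18 pathway lists when all experiments were fitted. Without experiment 2 the cell cycle list was lower (blocked median -0.73, against -0.49). Of 54 tested, 51 had a negative log2 difference and 31 were lower in 4 of 4 experiments. Over all 13169 tested genes, 7087 had a negative difference and 1684 were lower in 4 of 4. Of the list, 0 were called without the block and 10 were called lower with it. The median log2 difference was -0.99 without and -0.90 with the block. They include the transcription factor Stat2, the RNA sensors Ifih1 and Eif2ak2, the DNA-binding protein Ifi204, Ifit2, Trim30a, Slfn5, Slfn8 and the chemokine Ccl12. Slfn5, Slfn8, Stat2, Ifih1 and Eif2ak2 were named after their values were seen.

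The promoters of members called lower are shown because type I interferon acts through this element. It was searched as GAAA, any 2 bases, GAAA, on both strands, in the RefSeq window of GRCm38.p6 from 250 bases before to 50 bases after the first listed start. Lower case is the window and capitals mark a match. Of all 27025 genes in that promoter table, 943 held a match (3.49%). A promoter was on hand for 41 of the 54 list members (75.9%), under the minimum of 80% set for such a check, so the list's share with a match is void and is not given. The named members with an entry follow in full.
Trim30a, chr7:104465144-104465443, minus strand: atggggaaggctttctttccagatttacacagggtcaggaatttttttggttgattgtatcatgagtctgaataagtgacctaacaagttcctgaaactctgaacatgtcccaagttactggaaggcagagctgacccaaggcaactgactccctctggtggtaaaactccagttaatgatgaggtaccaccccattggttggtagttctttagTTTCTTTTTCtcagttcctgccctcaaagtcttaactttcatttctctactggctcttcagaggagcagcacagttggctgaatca
Ifit2, chr19:34550444-34550743, plus strand: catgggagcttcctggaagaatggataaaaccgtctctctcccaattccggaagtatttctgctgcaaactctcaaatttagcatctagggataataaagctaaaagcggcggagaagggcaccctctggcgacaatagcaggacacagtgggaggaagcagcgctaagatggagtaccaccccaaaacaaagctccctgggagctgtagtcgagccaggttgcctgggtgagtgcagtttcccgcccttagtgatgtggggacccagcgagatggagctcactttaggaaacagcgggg
Ccl12, chr11:82101595-82101894, plus strand: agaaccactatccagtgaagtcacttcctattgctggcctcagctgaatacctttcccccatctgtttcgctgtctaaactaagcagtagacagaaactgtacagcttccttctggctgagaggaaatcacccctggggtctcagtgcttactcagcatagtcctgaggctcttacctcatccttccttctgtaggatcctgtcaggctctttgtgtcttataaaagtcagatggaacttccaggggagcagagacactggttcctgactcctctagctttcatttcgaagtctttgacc
The Trim30a match starts at position -36 from the start, and these windows of Ifit2 and Ccl12 hold no match. The other called members with a match are shown around it.
Stat2, chr10:128270261-128270300, plus strand: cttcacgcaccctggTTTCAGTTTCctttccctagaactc
Ifih1, chr2:62646206-62646238, minus strand: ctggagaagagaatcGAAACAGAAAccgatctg
Slfn5, chr11:82951932-82951971, plus strand: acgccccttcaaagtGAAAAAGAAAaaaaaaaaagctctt
Slfn8, chr11:83020834-83020873, minus strand: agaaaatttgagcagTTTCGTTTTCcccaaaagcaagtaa
Eif2ak2, chr17:78882530-78882569, minus strand: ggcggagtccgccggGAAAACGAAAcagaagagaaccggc
Their matches start at -222, 32, -155, -48 and 18. A match describes the letters and is no evidence that a factor was bound, and list members that were not called hold matches as well.

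Trim30a, which dampens inflammatory signalling, stood at 280, 595, 266.97 and 240 CPM in untreated units of experiments 1 to 4 and at 135, 275, 106 and 136 CPM in acceptors. Each experiment showed a fall, and only the acceptor unit of experiment 2 reached into the untreated range. The blocked log2 difference was -1.09 ± 0.24 (adjusted p = 0.00764, and 0.304 without the block).

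Ifi204, of a family that senses DNA, went from 216, 800, 253.5 and 118 CPM to 106, 251.9, 150 and 65.3 CPM, lower in each experiment by log2 differences of -1.02, -1.67, -0.76 and -0.85, while the levels of the 4 experiments overlapped widely. The blocked difference was -1.17 ± 0.29 (adjusted p = 0.0199, and 0.357 without the block).

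Ifit2, which binds viral RNA, was at 103, 870, 172 and 38.2 CPM in untreated units and at 48.8, 165, 76.998 and 14.7 CPM in acceptors. Ccl12, a monocyte chemokine, was at 11.2, 127, 29.6 and 4.75 CPM and at 6.82, 20.9, 4.26 and 5.10 CPM. The untreated unit of experiment 2 was far above the others in both genes, and Ccl12 did not fall in experiment 4. The blocked differences were -1.68 ± 0.46 (adjusted p = 0.0313) and -1.94 ± 0.49 (adjusted p = 0.0211).

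The untreated unit of experiment 2 stood apart over the whole list. Its summed level was 29976 CPM, against 6229, 8185.5 and 3723 CPM in experiments 1, 3 and 4. Acceptors summed to 6030, 14392, 9594 and 2935.5 CPM in experiments 1 to 4, so the sum was much lower in experiment 2, was slightly lower in experiments 1 and 4 and was higher in experiment 3. The median over genes was negative in every experiment (-0.43, -1.31, -0.46 and -0.50). Without experiment 2 the list's median was -0.49 with the replicate block, with 2 members called, and without experiment 1 or experiment 3 the count was 0. Irf9 stayed near level (blocked difference -0.06). Ifitm3 went the other way (0.34, not called) and was 1 of 4 members with a positive blocked difference.

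**Figure D2:**
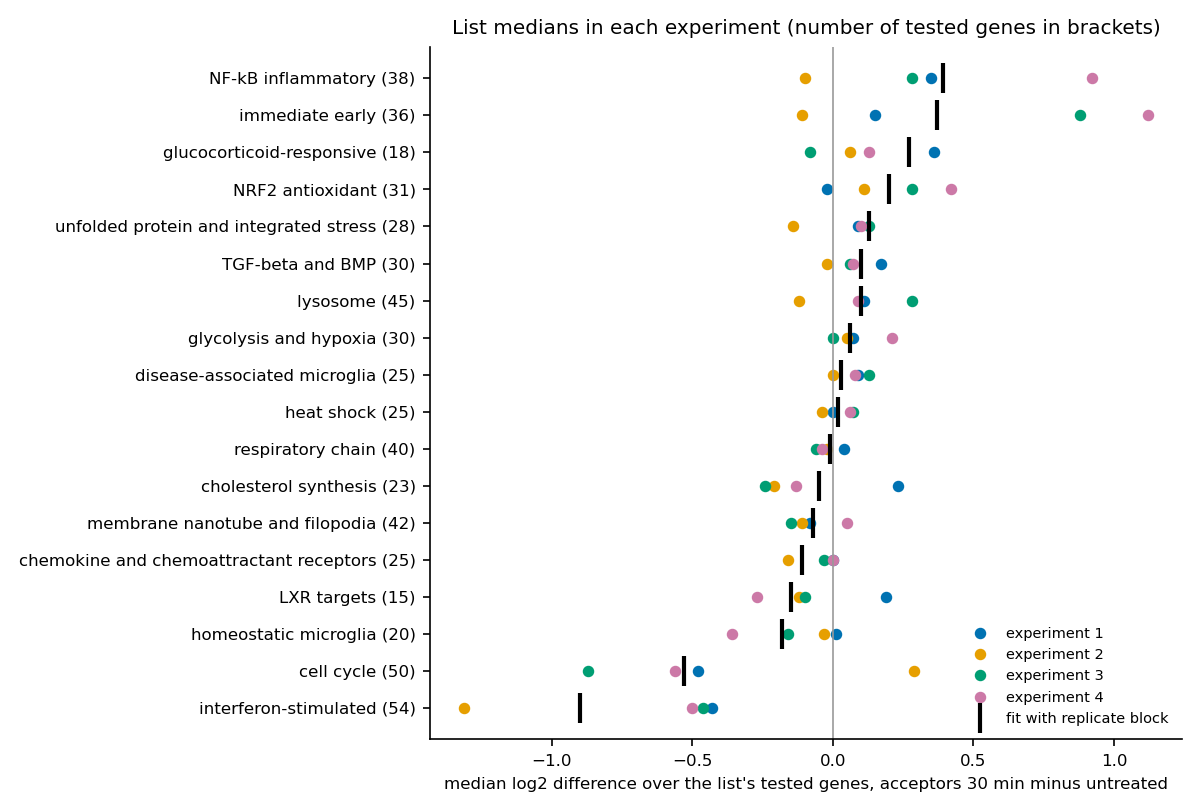
Median log2 difference, acceptors at 30 min minus untreated (x axis), over the tested genes of each of the 18 pathway lists (y axis, number of genes in brackets), with 1 dot per experiment and a bar for the fit with the replicate block. With all experiments the interferon-stimulated list lies lowest at -0.90, with experiment 2 at -1.31, while the cell cycle list lies lower in experiments 1, 3 and 4, and the NF-kB and immediate early lists lie highest at 0.39 and 0.37 with experiment 2 just below 0.

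Some cell cycle genes were called lower with the block. Of 50 tested, 0 were called without the block and 6 were called lower with it: the replication licensing genes Mcm2, Mcm3 and Mcm6, the spindle factor Tpx2, Cdca7 and the ribonucleotide reductase subunit Rrm1. Mcm2 stood at 27.3, 9.55, 24.2 and 23.9 CPM in untreated units and at 11.2, 8.37, 13.6 and 9.47 CPM in acceptors. The untreated unit of experiment 2, from passage 1, was already as low as the acceptors. The blocked difference was -0.95 ± 0.19 (adjusted p = 0.00503). The list's median was -0.54, and -0.48, 0.29, -0.87 and -0.56 by experiment, so the median of experiment 2 had the other sign. The summed level was lower in all 4 experiments, at 2353, 1364.5, 1813 and 2281 CPM in untreated units and 1596, 1146, 1027 and 1523 CPM in acceptors. Without experiment 1 or 3 the blocked count was 0.

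Genes of the NRF2 antioxidant response showed 4 of 31 members higher with the block and 0 without. Osgin1, an oxidative stress growth inhibitor, stood at 9.69, 13.1, 7.63 and 10.4 CPM in untreated units and 23.3, 25.9, 19.95 and 32.3 CPM in acceptors, with no overlap and a blocked difference of 1.31 ± 0.24 (adjusted p = 0.00114). Sqstm1, the autophagy receptor p62, had 507, 698, 463 and 525 CPM against 866, 847, 1171 and 1229 CPM (0.87 ± 0.16, adjusted p = 0.00163). In Sqstm1 the rise was smallest in experiment 2. Slc7a11, the cystine transporter, and Slc6a9, a glycine transporter, were the others (blocked adjusted p = 0.0200 and 0.0276). Slc7a11 was lower in experiment 2, at 1.70 CPM untreated and 1.08 CPM in acceptors.

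In the unfolded protein and integrated stress list, 2 of 28 genes were called higher with the block, the translation-stress factors Atf4 (0.74 ± 0.20, adjusted p = 0.0280) and Atf5 (0.86 ± 0.25, adjusted p = 0.0402). Both differed by less than 0.1 in experiment 2.

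In the TGF-beta and BMP list, the inhibitor of DNA binding Id3, the repressor Tgif1 and the SMAD co-repressor Skil were called higher and the receptor Tgfbr2 lower, of 30 tested. Id3 was at 1.82, 3.58, 20.1 and 15.4 CPM in untreated units and at 39.5, 21.04, 44.2 and 32.1 CPM in acceptors. All acceptor units lay above all untreated units, and the gap was widest in experiments 1 and 2, where untreated cells were lowest. The blocked difference was 1.93 ± 0.45 (adjusted p = 0.0119, and 0.262 without the block). Tgfbr2 held 172, 130, 144 and 101 CPM in untreated units and 85.4, 68.96, 114 and 95.0 CPM in acceptors (-0.58 ± 0.12, adjusted p = 0.00602). Tgm2, a transglutaminase outside these lists, was among the largest rises with the block, at 1.21, 5.10, 11.5 and 5.81 CPM untreated and 7.90, 14.1, 23.5 and 9.80 CPM in acceptors (adjusted p = 0.0363).

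Glucocorticoid-responsive genes leaned higher, with 13 of 18 differences positive and a median of 0.23 (0.27 with the block), but calls went both ways. Of 18 tested, Dusp1 and the kinase gene Sgk1 were called higher and the receptor gene Nr3c1 lower with the block. Over all tested genes 1.56% were called higher and 2.04% lower. The homeostatic microglia list had 2 of 20 called lower with the block, P2ry12 and Sparc. P2ry12, the ADP receptor by which microglia sense injury, went from 7.47, 12.3, 8.23 and 4.22 CPM to 4.05, 4.56, 5.48 and 2.92 CPM (-0.91 ± 0.24, adjusted p = 0.0231). It was lower in every experiment, though the groups overlapped.

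The membrane nanotube and filopodia list holds genes tied to the thin bridges through which cells exchange cargo. Of 42 tested, the branched-actin subunit gene Arpc2 (-0.45 ± 0.10, adjusted p = 0.00708) and the exocyst gene Exoc1 (-0.39 ± 0.11, adjusted p = 0.0289) were called lower with the block and 0 higher. Myo10, a filopodial motor, had means of 93.8 and 58.3 CPM and did not pass (adjusted p = 0.0749). Of 45 lysosome genes, the proton pump subunit Atp6v0c was called higher (0.30 ± 0.08, adjusted p = 0.0294) and the thioesterase Ppt1 lower (-0.28 ± 0.08, adjusted p = 0.0463). Of 30 glycolysis and hypoxia genes, the mitophagy receptor Bnip3l was called higher. Over all tested genes, 1.56% were called higher and 2.04% lower with the block. A single call in a list of 30 or 45 genes is close to that share and is no result about the list. In the disease-associated microglia (25), heat shock (25), cholesterol synthesis (23), LXR target (15) and respiratory chain (40) lists, 0 genes were called with either fit, and the list medians lay between -0.15 and 0.03.

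The calls of these smaller lists also rested on experiments 1 and 3. Without either, 0 members of the unfolded protein and integrated stress, TGF-beta and BMP, nanotube, lysosome, chemokine receptor and homeostatic lists were called with the block. The glycolysis and hypoxia list had 0 called without any 1 of the 4 experiments, and the glucocorticoid-responsive list had 1 without experiment 1 and 0 without experiment 3. The NRF2 list had 2, 3, 1 and 4 members called higher without experiment 1, 2, 3 or 4.

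Among the largest falls with the block were genes of other brain cells and of the interferon response. Bcas1, a marker of new oligodendrocytes, went from 3.63, 2.22, 18.9 and 13.8 CPM to 0.675, 0.317, 4.87 and 0.567 CPM. Olig1, a transcription factor of that lineage, went from 4.44, 6.50, 84.9 and 75.3 CPM to 2.16, 2.73, 50.3 and 8.83 CPM. The blocked difference of Bcas1 was -2.92 ± 0.66 (adjusted p = 0.00964, and 0.517 without the block). In both genes experiments 3 and 4 held the highest untreated levels. Mapt (tau), Fbxo2, Nfib, Sparc and Nedd4 had the same layout, with untreated levels of 9.60 to 24.3 CPM in experiments 3 and 4 and of 1.11 to 3.83 CPM in experiments 1 and 2. Their blocked differences were between -1.90 and -1.67. Calhm6 and Gm12250, annotated as a processed pseudogene, instead were highest in the untreated unit of experiment 2 (50.0 and 80.9 CPM), like the interferon-stimulated genes.

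Marker sums of other brain cells were lower in acceptors in 4 of 4 experiments for the oligodendrocyte and neuron lists, in 3 for the astrocyte and endothelial or mural lists and in 2 for the fibroblast or meningeal list. Oligodendrocyte lineage markers summed to 278 to 724 CPM in untreated units and to 135 to 355 CPM in acceptors. Of these markers, 11 of 11 tested had a negative difference, against 7087 of 13169 over all tested genes. Only 5 of the 11 were lower in 4 of 4 experiments, against 1684 of 13169. Mbp was near level (blocked difference -0.12) and was higher in acceptors in experiments 2 and 4. Olig2 was higher in acceptors in experiments 1 and 3. With the block 4 of the 11 markers were called, among them Bcas1, Cnp and Olig1. Astrocyte markers summed to 12.1 to 185 CPM and to 12.2 to 45.6 CPM, with 12 of 12 tested negative and 3 called with the block. Of these, Gfap stood at 0.303, 0.0872, 1.37 and 15.1 CPM in untreated units and at 0.00, 0.00, 0.305 and 1.54 CPM in acceptors. Aqp4 stood at 0.303, 0.00, 2.66 and 10.7 CPM and at 0.00, 0.00, 0.00 and 0.648 CPM. The third, Hes5, stood at 0.404, 0.436, 7.46 and 18.7 CPM and at 0.0675, 0.127, 1.29 and 0.324 CPM. Gfap, Aqp4 and Hes5 were highest in untreated units of experiments 3 and 4 and under 0.5 CPM in experiments 1 and 2, where the astrocyte sums were 12.1 and 20.7 CPM in untreated units and 12.2 and 15.7 CPM in acceptors.

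Neuronal markers summed to 4.62 to 37.1 CPM in untreated units and to 2.22 to 26.8 CPM in acceptors, with Tubb3 called lower with the block (1.01, 0.523, 1.29 and 1.55 CPM against 0.00, 0.00, 0.228 and 0.0810 CPM). Endothelial or mural markers (56.5 to 104 against 37.6 to 97.2 CPM) and fibroblast or meningeal markers (3.62 to 62.3 against 4.82 to 38.9 CPM) had 0 called. In the table were 3 of 10 lymphocyte and neutrophil markers, which summed to at most 0.514 CPM. Ntsr2, Gad1 and Kcnj8 were at 0 in all acceptor units. In bulk RNA, fewer cells of a type and less RNA per cell cannot be told apart. The part of these other cells in the genes called lower was not tested.

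**Figure D3:**
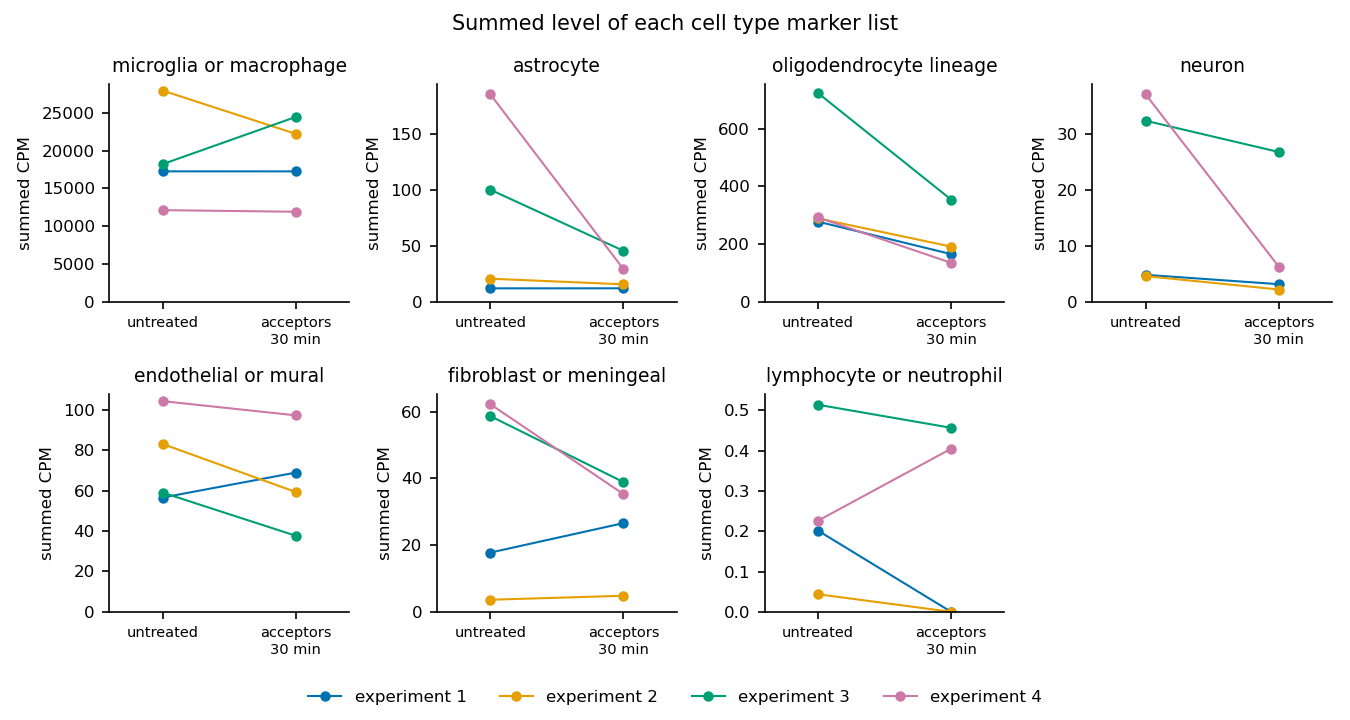
Summed CPM (y axis, linear from 0) of each cell type marker list in untreated units and acceptors at 30 min (x axis), with a line joining the 2 units of each experiment. The oligodendrocyte sums fall in all 4 experiments, the astrocyte sums fall most in experiment 4 from 185 CPM, and the microglia sums stay between 11912 and 27920 CPM.

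The acceptors at 30 min were then set against acceptors at 0, 15 and 60 min, which carried the same dye and have 3, 4 and 4 libraries. These direct comparisons use no untreated unit. In each, 0 of 13169 genes were called (0%) without and with the replicate block. At an unadjusted p under 0.05, edgeR gave 189, 111 and 158 genes without the block (1.44%, 0.843% and 1.20%). With the block it gave 400, 417 and 525 (3.04%, 3.17% and 3.99%). In blocked fits of only the groups compared, the shares were 6.50%, 7.87% and 6.26%. The absence of calls therefore does not show that levels were equal. DESeq2 also called 0 genes in each, with 1.54%, 0.873% and 1.25% of its tested genes at an unadjusted p under 0.05. When only the 2 groups were fitted, with the block, 1 gene was called in each, named for that result: Cxcl2 higher than at 0 min (0.83, adjusted p = 0.0426), the ganglioside synthase gene St3gal5 higher than at 15 min (0.62, adjusted p = 0.0466) and Thbs1 lower than at 60 min (-1.92, adjusted p = 0.0346).

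Levels at the 4 times can be read side by side. Dusp1 stood at 188, 183 and 144 CPM at 0 min in experiments 1 to 3, at 319, 281, 291 and 556 CPM at 15 min and at 210, 215, 211 and 381 CPM at 60 min. The 30 min values of 281 to 729 CPM were thus near those at 15 min and above those at 0 min in each experiment that has both. The direct blocked differences were 1.05 ± 0.27 from 0 min, 0.16 ± 0.24 from 15 min and 0.66 ± 0.24 from 60 min, with adjusted p-values of 0.758, 1.00 and 1.00. Mybpc3 was at 2.69, 2.42 and 4.09 CPM at 0 min and had a direct blocked difference from it of 1.42 ± 0.35 (adjusted p = 0.669).

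Cxcr4 was at 98.6, 60.2 and 79.9 CPM at 0 min and 184, 152, 145 and 227 CPM at 60 min. Its means were 146 CPM at 30 min and 177 CPM at 60 min, and their difference did not pass the direct test (-0.30 ± 0.21 with the block, adjusted p = 1.00). Id3 was already at 51.6, 26.1 and 24.9 CPM at 0 min, and its direct difference from 0 min was -0.19 ± 0.46.

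**Figure D4:**
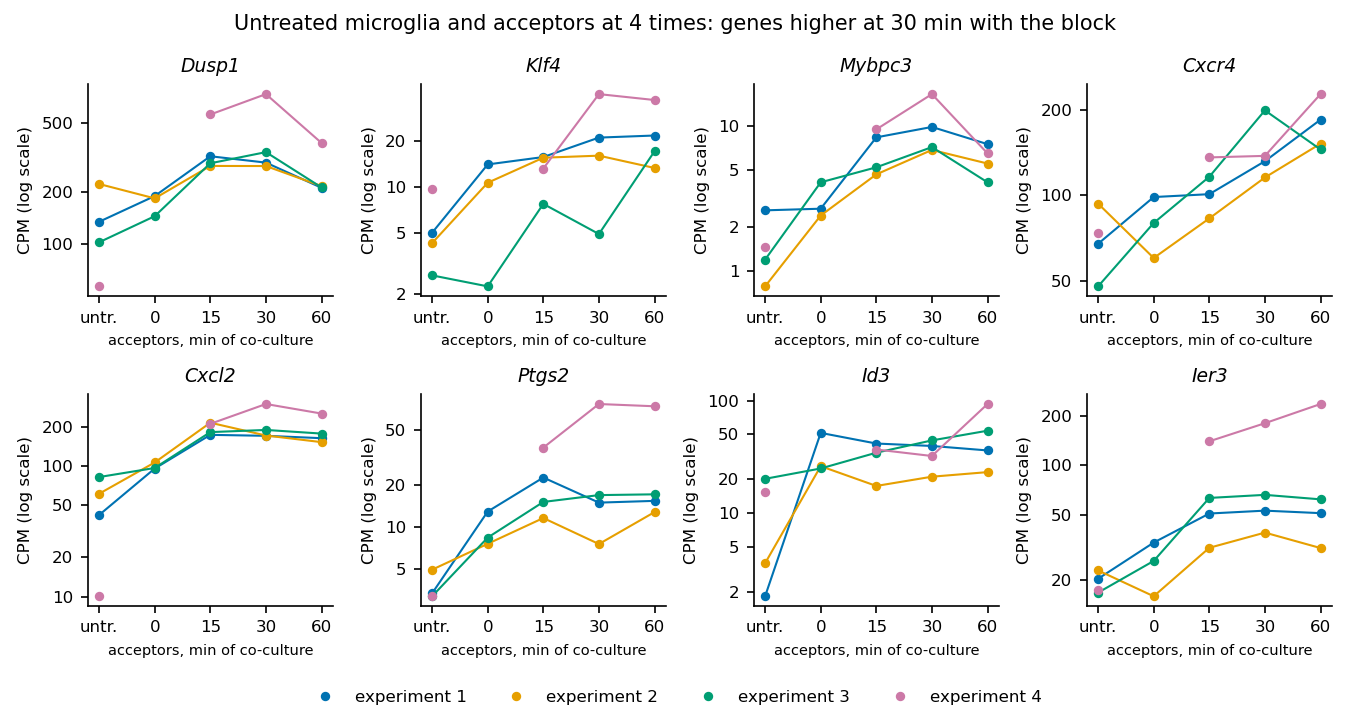
Level in CPM (y axis, log scale) of 8 genes called higher at 30 min with the replicate block, in untreated units and in acceptors at 0, 15, 30 and 60 min (x axis, not to scale), with 1 colour per experiment and no unit for experiment 4 at 0 min. Dusp1 lies at 281 to 556 CPM at 15 min and at 210 to 381 CPM at 60 min, and Id3 is already at 24.9 to 51.6 CPM at 0 min.

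Some genes called lower than in untreated cells were below the untreated level at 0 min as well, as the 4 given here. Snx2 was at 92.9, 151 and 89.2 CPM at 0 min in experiments 1 to 3, Trim30a at 134, 316 and 103 CPM, Ifi204 at 88.0, 308 and 93.2 CPM and Bcas1 at 0.970, 0.483 and 5.12 CPM. All 12 of these values lie below the untreated value of the same experiment. The direct blocked differences between 30 and 0 min were -0.14 ± 0.17, -0.17 ± 0.26, -0.01 ± 0.31 and -0.46 ± 0.72. The interferon-stimulated list's median between 30 min and 0, 15 and 60 min was 0.07, -0.07 and -0.17 with the replicate block, and that of the cell cycle list 0.16, 0.15 and 0.18. For the immediate early list it was 0.48, 0.21 and -0.01, with 0 of 36 members called. Oligodendrocyte marker sums were 164 to 323 CPM at 0 min, 136 to 340 at 15 min and 136 to 303 at 60 min.

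**Figure D5:**
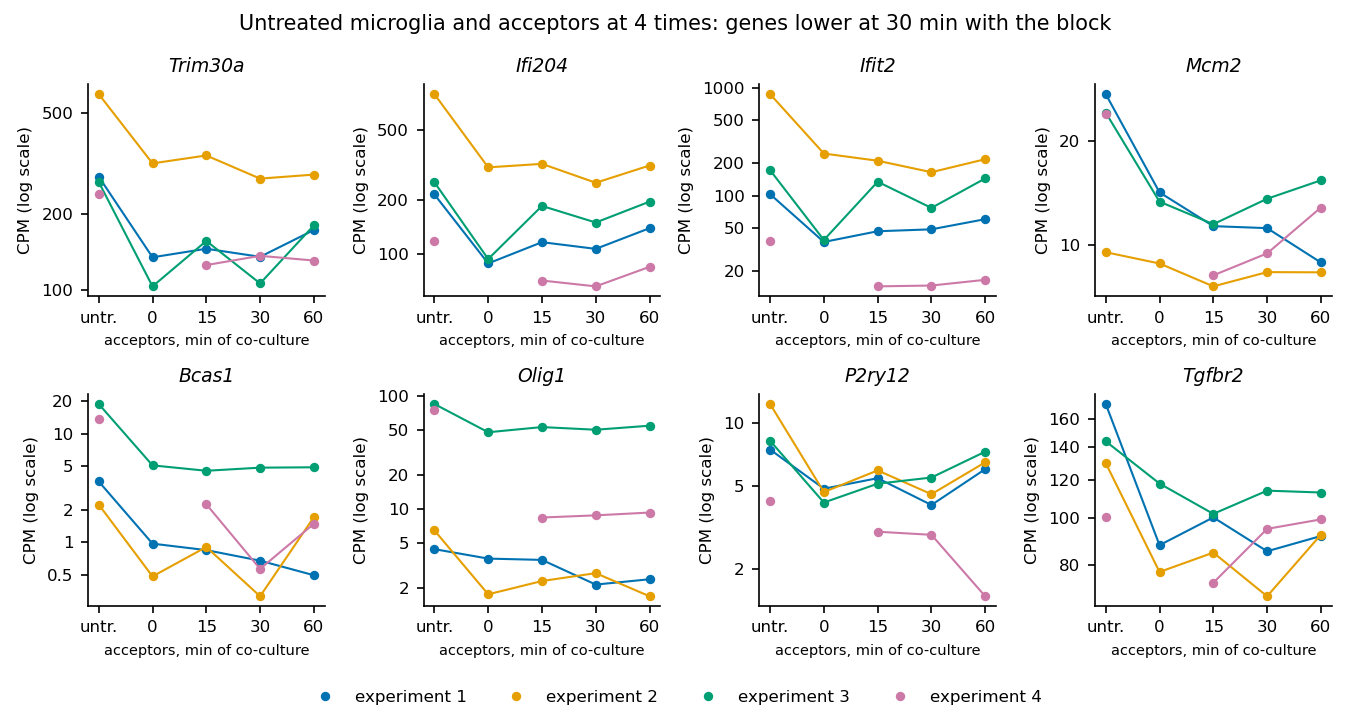
Level in CPM (y axis, log scale) of 8 genes called lower at 30 min with the replicate block, in untreated units and in acceptors at 0, 15, 30 and 60 min (x axis, not to scale), with 1 colour per experiment and no unit for experiment 4 at 0 min. The level at 0 min lies below the untreated level of experiments 1 to 3 in all 8 genes, as for Trim30a at 103 to 316 CPM.

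Against donors sorted from the same 30 min co-cultures, 106 genes were called without the block (0.805%), 33 higher and 73 lower in acceptors. With the block 1416 were called (10.8%). A fit of these groups alone called 13 genes without the block and 157 with it. Adgre5, an adhesion receptor of leukocytes, separated the populations most: acceptors held 3.98, 2.92, 7.08 and 4.70 CPM and donors 107, 83.5, 113 and 79.99 CPM. Acceptors lay far nearer to the untreated range of 2.41 to 3.77 CPM than to donors. Only the acceptor unit of experiment 2 was within that range, and the others were above it. The log2 difference was -4.36 ± 0.29 (adjusted p = 1.63e-14). Slc35f6, Cd244a, Itga9, Mtmr10, Slc13a3 and Stra6l were also lower in acceptors, by log2 differences from -2.99 to -1.01, and the kinase gene Map3k20 was higher (1.21 ± 0.23, adjusted p = 0.00354).

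Several genes that were higher than in untreated cells were higher still in donors. Slc7a11 had means of 16.6 CPM in acceptors and 112 CPM in donors (-2.57 ± 0.37 with the replicate block, adjusted p = 1.03e-05), and Tgm2 13.8 and 93.4 CPM (-2.67 ± 0.36, adjusted p = 2.91e-06). Dusp1, at 410 and 430 CPM, and Cxcr4, at 146 and 181 CPM, did not pass (adjusted p = 0.850 and 0.381). With the block in the fit of all 14 groups, 21 of 38 NF-kB genes and 15 of 31 NRF2 genes were called lower in acceptors than in donors. So were 14 of 54 interferon-stimulated genes, while 21 of 50 cell cycle genes were called higher. Over all 13169 tested genes, 724 were called lower and 692 higher in this fit.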

How the data were processed

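Gene expression was measured in primary mouse microglia with a 3′ end kit (QuantSeq FWD) as single reads. The authors deposited raw counts per gene symbol for all 54 libraries and, for the same libraries, a normalized signal named DESeq2 in the file headers, which served only to check the counts. STAR, Partek, DESeq2 and mm10 are named in the submitters' processing notes. The use of strand in counting is not given in the sources used here.

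The members and gene lists were chosen with earlier results of these data known. Same-numbered untreated libraries, which differed less than libraries of other numbers, were summed. R 4.3.3, edgeR 4.0.16 (TMM, filterByExpr with minimum count 10, quasi-likelihood test, Benjamini-Hochberg) was fitted to all 14 groups first without a term for the experiment and then with a replicate block, and DESeq2 1.42.0 was an alternative. The replicate numbers come from the titles, and same-numbered units deviated together (r = 0.470, 0.603, 0.542 and 0.556), so the numbers were taken to pair the samples. CPM uses TMM-scaled totals, and same-numbered differences use log2 CPM with a prior count of 2. No molecular identifiers are stated. Same-numbered untreated libraries differed by more than counting error (chi-square per degree of freedom 10.3 and 12.1), so precision is not limited by counting error only.

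Named were every gene called without the block; with the block, the 12 largest rises and 12 largest falls with mean CPM of at least 5 and 1 direction in 4 of 4 experiments; up to 4 members per list by p; Adgre5, Cxcr4 and Skil; and the leading genes of the other comparisons. A few genes so chosen are not reported here. Gene positions come from the GENCODE annotation of GRCm38, and promoters from RefSeq. The tests were checked on simulated counts.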

Additional observations from a re-analysis of the deposited data

Results flagged for a closer look

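In the 2 groups of 4 units, 136 sets of values (68 named genes) were screened for a unit far from the other 3, and 18 were found. The cutoff flags about 1 in 20 sets of independent, normally distributed values. These sets share the same units and hold CPM of selected genes, so that rate need not hold here. The acceptor unit of experiment 4 was far above the others for Dusp1 (729 CPM, others 281 to 338), Nr4a2 (53.9, others 1.20 to 7.62), Ptgs2 (76.9, others 7.54 to 17.0), Cxcl2 (299, others 171 to 189), Lcn2 (14.3, others at most 0.203), Nr3c1 (87.0, others 47.9 to 54.5) and Aqp4 (0.648, others 0). The untreated unit of experiment 2 was far above the others for the interferon-stimulated genes Ifit2 (870 CPM, others 38.2 to 172) and Trim30a (595, others 240 to 280), and for Calhm6 (50.0), Gm12250 (80.9), Cmklr1 (156), Atf4 (461) and Ptgs2 (4.93). The acceptor unit of experiment 2 was highest for Ccl12 (20.9 CPM). The acceptor unit of experiment 3 was highest for the oligodendrocyte genes Bcas1 (4.87 CPM, others 0.317 to 0.675) and Olig1 (50.3, others 2.16 to 8.83). For Gfap, the untreated unit of experiment 4 stood at 15.1 CPM and the others at 0.0872 to 1.37.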

How the results depend on the processing

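Of the 15 genes called against untreated cells, all 15 were called with the replicate block (474 in total), with DESeq2 (37) and with untreated libraries kept separate (28). RLE size factors also gave 15 calls, 13 of them shared, with B4galt1 and Klf4 lost, and 9 higher and 6 lower, against 11 and 4. Fitting only the 8 units gave 0, or 106 with the replicate block. Leaving out experiment 1, 2, 3 or 4 gave 0, 6, 0 and 29 calls, and 77, 271, 24 and 597 with the replicate block. Against donors, 106 calls became 1416 with the replicate block and 212 with DESeq2. With only these groups fitted there were 13 calls, and 157 with the replicate block. Leaving out 1 experiment gave 19 to 179 calls. With the replicate block and experiment 1, 2, 3 or 4 left out there were 862, 729, 721 and 1122. Against acceptors at 0, 15 and 60 min, fitting only the groups compared with the block gave 1 call each in place of 0. The interferon-stimulated median ranged from -1.07 to -0.47 with 1 experiment left out (-0.49 with the block and without experiment 2), the immediate early median from 0.23 to 0.79, the NF-kB median from 0.17 to 0.55, the heat shock median from -0.05 to 0.06 (-0.04 with the block and without experiment 3), the disease-associated median from 0.00 to 0.12 and the chemokine receptor median from -0.14 to -0.01 (-0.24 with the block and without experiment 1, -0.01 with untreated libraries kept separate). Lcn2, at 2.72 with all experiments, ranged from -0.85 without experiment 4 (-0.65 with the block) to 3.18. The causes were not tested, beyond the smaller number of units.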
